A study of Mus musculus with 19 samples.

Results

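The 46 protein-coding genes whose symbols begin with Nduf were followed through 19 single mouse embryos at the morula and blastocyst stages. They were taken as every row of the deposited table with that symbol start and the type protein coding, 46 of 53379 gene rows and of 21963 protein-coding rows, without regard to any measured value. Of the 46, 7 encode core subunits of respiratory complex I, 9 encode accessory subunits of its matrix arm, 20 encode accessory subunits of its membrane arm and 8 encode assembly factors. The other two are Ndufa4, now placed in complex IV, and its paralog Ndufa4l2, so the symbol is wider than the complex. A gene was tested when its FPKM (fragments per kilobase of merged exon, scaled to library size) was at least 1 in at least 2 of the 19 embryos, and 45 of the 46 passed.

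All embryos came from in vitro fertilisation with B6D2F1 mice, were grown in KSOM medium at 37 °C and were collected 96 hours after insemination, so morulae and blastocysts had the same age. Parents heterozygous for a deletion in Alyref (Alyref+/- x Alyref+/-) gave 2 morulae labelled Alyref KO, and, as non-KO embryos, 3 morulae with 3 blastocysts. Parents heterozygous for a deletion in Gabpb1 (Gabpb1+/- x Gabpb1+/-) gave 3 morulae labelled Gabpb1 KO, and, as non-KO embryos, 2 morulae with 3 blastocysts. WT parents gave 3 blastocysts. KO embryos were recognised by the submitters from missing reads over the deleted stretch in these same libraries, and the non-KO embryos of each cross are WT or heterozygous. No blastocyst was labelled KO in its sample title, which is the label used here, as column names carry KO for all embryos of a cross. No batch is named, so a batch effect and the cross cannot be told apart. Whether embryos of a group came from separate fertilisations is not given either, so p-values measure the spread between these embryos.

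Complex I oxidises NADH, passes the electrons along iron-sulphur clusters to ubiquinone and pumps protons out of the mitochondrial matrix. Its catalytic matrix arm is built from nuclear-encoded core subunits, while the core of its proton-pumping membrane arm is encoded in mitochondrial DNA as the mt-Nd genes, so both genomes must supply it. Preimplantation embryos inherit their mitochondria from the oocyte, and oxygen consumption is known to rise toward the blastocyst. Alyref is an adaptor for mRNA export, and Gabpb1 encodes a subunit of GABP (also called NRF-2), an ETS-family transcription factor known for binding promoters of nuclear genes for mitochondrial proteins.

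Because GABP and Nrf1 are the classical regulators of such genes, the RefSeq promoter windows (250 bases before to 50 bases from the start on, GRCm38.p6) were searched on both strands for CCGGAAGT, the letters of the GABP/ETS consensus, and for the palindromic Nrf1 consensus, whose letters are the capitals in Ndufa11, Ndufaf4 and Ndufaf5 below. The windows held 40 of the 46 members. The GABP/ETS letters were in 1 of 40 members (2.5%), against 4.31% of the 27025 genes with a window. The Nrf1 letters were in 3 of 40 members (7.5%), against 1.07% of all genes. These 4 stretches are shown first because they hold the only exact matches, with the matching letters in capitals, each 5′ to 3′ on the gene's strand, and 100 bases each of the windows of Ndufa8 and Ndufs6 follow because these genes were called between stages in more settings than any other member.
Ndufs3 (chr2:90904714-90904743, minus strand): agaagagtcactgcacatttccACTTCCGG
Ndufa11 (chr17:56717642-56717761, plus strand): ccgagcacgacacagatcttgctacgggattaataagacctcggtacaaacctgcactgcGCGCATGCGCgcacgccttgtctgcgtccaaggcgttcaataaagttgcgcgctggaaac
Ndufaf4 (chr4:24897910-24898039, plus strand): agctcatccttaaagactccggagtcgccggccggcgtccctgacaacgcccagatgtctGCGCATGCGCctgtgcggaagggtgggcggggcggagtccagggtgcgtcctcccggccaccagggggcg
Ndufaf5 (chr2:140170642-140170671, plus strand): cgctagtcgtagtcccgttgGCGCATGCGC
Ndufa8 (chr2:36049339-36049438, minus strand): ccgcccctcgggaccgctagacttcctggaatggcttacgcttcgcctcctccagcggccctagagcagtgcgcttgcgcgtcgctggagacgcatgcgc
Ndufs6 (chr13:73328483-73328582, minus strand): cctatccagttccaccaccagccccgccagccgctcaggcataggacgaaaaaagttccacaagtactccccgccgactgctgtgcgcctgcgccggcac

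In Ndufs3 the match covered bases 1 to 8 from the start on, and in Ndufaf5 it covered bases 17 to 26. In Ndufa11 it lay 60 to 51 bases before the start and in Ndufaf4 113 to 104 bases before it. An exact match of these letters describes the window and does not show a binding site, and a window without them may hold other forms of either motif.

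Library size ranged from 7.49 to 31.5 M gene counts per embryo, and ERCC spike-in RNA took 0.501 to 1.95% of all counts. Levels are given as CPM, the usual library-scaled count with edgeR's TMM factors, which is not corrected for gene length. Alyref CPM values were 47.8 and 58.5 in the Alyref KO morulae and 162 to 291 in their non-KO morula controls (adjusted p = 0.0227). KO embryos were recognised from missing reads of the gene in these same libraries, so this p-value is no independent check of the label. The Gabpb1 transcript was no lower in embryos labelled Gabpb1 KO, at 78.2, 259 and 151 CPM against 93.8 and 83.3 CPM, and counts per gene cannot show the deleted stretch. That label is therefore kept as the submitters' label throughout. All 10 trophectoderm, all 8 epiblast, all 6 primitive endoderm and all 9 oocyte (maternal) markers passed 3 counts in at least 1 embryo. So did 4 of 8 cumulus and granulosa markers and 4 of 5 sperm markers. No cumulus or granulosa marker passed 7 counts in an embryo and no sperm marker passed 25 counts. Fshr and Tnp1 were at 0 in all 19 embryos. Since each library is 1 whole embryo, fewer cells of a type and less RNA per cell cannot be told apart.

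Nduf transcripts were abundant. The median member had a mean of 113 FPKM over the 19 embryos, against 4.02 FPKM for the median of the 18410 genes tested, and tested members ran from 8.13 to 438 FPKM. On this scale per length the membrane-arm subunit Ndufb6 was highest at 438 ± 156 FPKM (SD, n = 19). Next came Ndufa6, a matrix-arm subunit that holds the acyl carrier protein, at 380 ± 124 FPKM (SD, n = 19), and Ndufs6, a zinc-binding matrix-arm subunit, at 362 ± 107 FPKM (SD, n = 19). The stoichiometric subunits of 1 complex thus spread widely on this scale. It divides by merged exon length, which was 659 bases for Ndufb6 and 8086 bases for Ndufs1, and the part of that length in the spread was not tested. Matrix-arm accessory subunits had a median of 254 FPKM, membrane-arm accessory subunits 153 FPKM and core subunits 80.9 FPKM. Assembly factors, which help build the complex and leave it, had a median of 23.1 FPKM and held both of the lowest tested members, Ndufaf2 at 8.13 FPKM and Ndufaf5 at 8.89 FPKM. Ndufa4l2, the one member that failed the filter, had 0 to 3 counts per embryo, was at 0 in 12 of 19 embryos and had a mean of 0.0451 FPKM.

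Among core subunits, Ndufs8, which carries iron-sulphur clusters toward ubiquinone, was highest at 250 FPKM and Ndufs1, the large iron-sulphur subunit of the NADH-oxidising module, was lowest at 19.8 FPKM. The order differed by mean CPM, which has no length divisor: 241 for Ndufs8 and 160 for Ndufs1, with Ndufv2 (436) and Ndufs7 (381) above both. Ndufs8 was also the steadiest member. Its CPM ran from 181 to 291 over all 19 embryos, and its SD of log2(CPM + 1) was 0.19, against a median of 0.44 for tested members and 0.47 for all genes tested.

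Summed over the 46 genes, Nduf transcripts made up 5690 and 6671 CPM in the Alyref KO morulae and 6040, 5844 and 7508 CPM in the corresponding non-KO morulae. Sums were 9253, 9443 and 7368 CPM in the morulae labelled Gabpb1 KO and 7688 and 7520 CPM in the non-KO morulae of the Gabpb1 cross. Blastocysts had 10436, 9529 and 9181 CPM in the Alyref cross, 8853, 10507 and 8580 CPM in the Gabpb1 cross and 10266, 10498 and 12289 CPM after WT mating. Every one of the 9 blastocysts was thus above every one of the 5 non-KO morulae, 1 Alyref KO morula lay below and 1 within the range of their non-KO controls, and the morulae labelled Gabpb1 KO reached from the non-KO morulae into the range of the blastocysts. The trophectoderm marker sum was 5002 to 8135 CPM in the blastocysts of all 3 groups, 756 and 1666 CPM in Alyref KO morulae, 657 to 2321 CPM in Alyref cross and 3165 to 4824 CPM in Gabpb1 cross non-KO morulae, and 376 to 3154 CPM in the morulae labelled Gabpb1 KO. In the Alyref cross the epiblast marker sum was 652 to 767 CPM in non-KO morulae and 328 to 405 CPM in blastocysts. Nanog had 284 to 374 and 69.5 to 105 CPM there, while Tdgf1 on the same list had 73.0 to 146 and 129 to 181 CPM. Of the trophectoderm markers, Krt18 had 237 to 907 and 2328 to 4115 CPM, while Tfap2c had 66.4 to 109 and 37.3 to 40.2 CPM. The oocyte (maternal) marker sum was 47.2 to 65.8 CPM in non-KO morulae and 85.7 to 145 CPM in blastocysts of that cross. Most of the oocyte sum was Ooep, at 38.2 to 60.6 CPM in those morulae and 83.2 to 141 CPM in those blastocysts. Zp2 was also higher in blastocysts, while Zp3 (3.95 to 4.56 against at most 0.677 CPM) and Gdf9 (0.518 to 0.869 against 0.372 to 0.387 CPM) were lower. The part of these markers in the Nduf values was not tested.

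**Figure D1:**
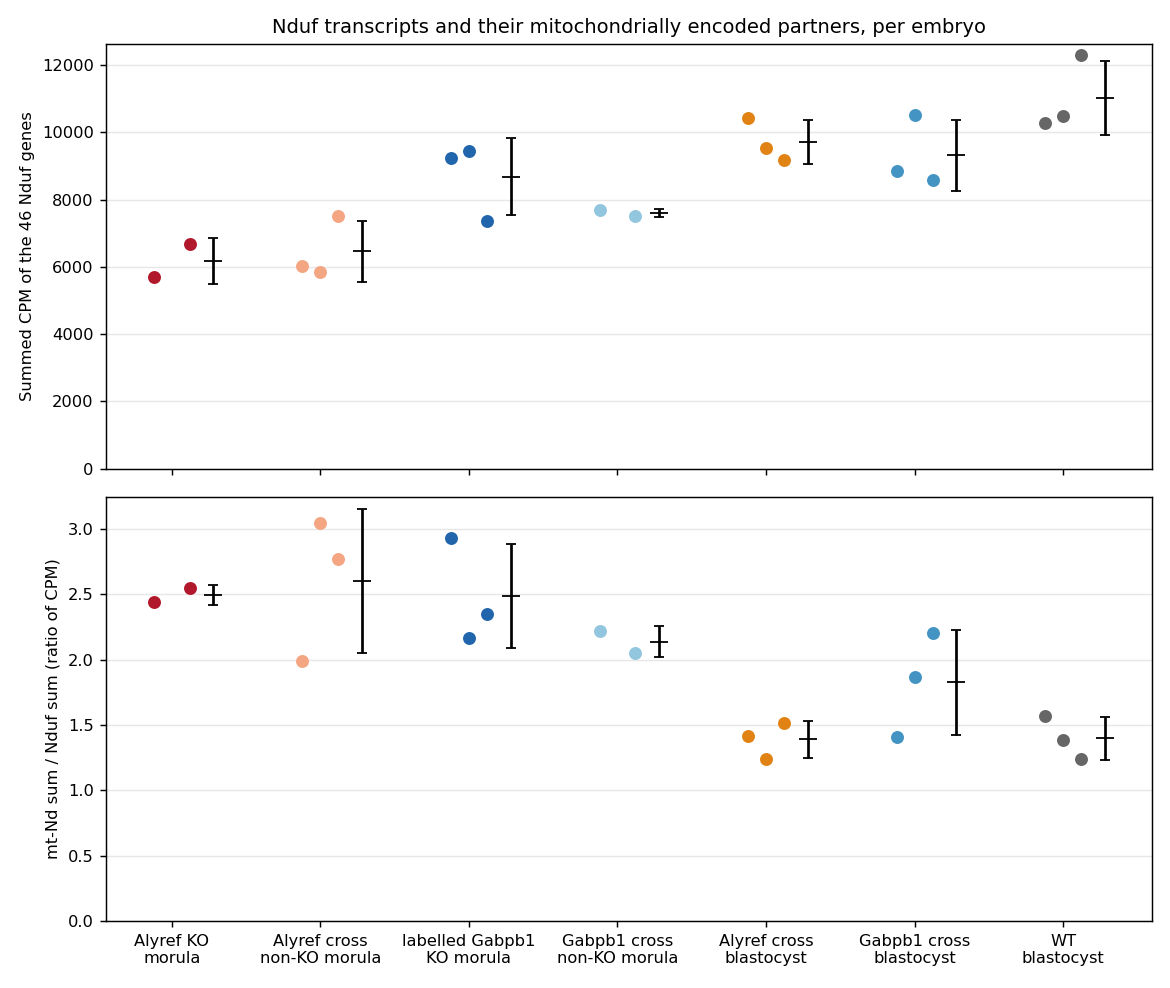
Top, CPM summed over the 46 Nduf genes in each embryo. Bottom, the sum of the 7 mitochondrially encoded complex I genes (mt-Nd) divided by the Nduf sum, both in CPM. Points are embryos and bars are group mean ± SD (n = 2 or 3 embryos). Blastocysts sit at 8580 to 12289 CPM in the top panel, and their ratio in the bottom panel runs from 1.24 to 2.21 against 1.99 to 3.05 in morulae.

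In the Alyref cross, blastocysts had a larger Nduf share of their mRNA than non-KO morulae of the same age. By edgeR's quasi-likelihood test with Benjamini-Hochberg adjustment over 18410 genes, called at an adjusted p under 0.05 here and below, 16 of 45 members rose and 0 fell, where 5.62% of all genes tested rose and 7.43% fell. The median member log2 fold change was 0.63 against -0.04 over all genes tested, and 42 of 45 members were above 0. In 31 of 45 members all 3 blastocysts lay above all 3 morulae, which held for 19.6% of all genes tested. The rise was spread over the core, both arms and Ndufa4, and none of the 8 assembly factors was called. Their median was 0.12, with 2 of 8 at an unadjusted p under 0.05, and 0 of 8 was called by DESeq2, 1 (Ndufaf5) by limma voom with embryo weights and 0 by limma on log2(FPKM + 1). Of all genes tested these tools called 3739, 7262 and 2596.

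Among core subunits, Ndufs7, which carries the last iron-sulphur cluster before ubiquinone, had 232, 263 and 355 CPM in morulae and 422, 435 and 458 CPM in blastocysts. These groups did not overlap, and Ndufs7 rose by this test (0.63 on the log2 scale, SE 0.19, adjusted p = 0.038). Ndufv1, which binds NADH and the flavin, missed the threshold at 0.79 (SE 0.25, adjusted p = 0.0508). Log2 fold changes were 0.56 for Ndufs1, 0.25 for Ndufs3, 0.17 for Ndufv2 and 0.10 for Ndufs8, with adjusted p-values of 0.0831, 0.253, 0.512 and 0.724.

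Of the 9 matrix-arm accessory subunits 4 rose. Ndufs4 (ENSMUSG00000021764.7, mm10 chr13:114287795-114388258, minus strand), needed to dock the NADH-oxidising module and known for Leigh-like disease when lost, gave the largest log2 fold change of all members. It had 48.5, 78.2 and 123 CPM in morulae and 180, 231 and 242 CPM in blastocysts, which is 1.39 on the log2 scale (SE 0.34, adjusted p = 0.0194). Ndufs6 (ENSMUSG00000021606.8, chr13:73319838-73328542, minus strand) had 184, 206 and 208 CPM in morulae and 333, 354 and 366 CPM in blastocysts (log2 fold change 0.82, SE 0.16, adjusted p = 0.00956), so its 2 groups were tight and far apart. Ndufa5, next to the ubiquinone module, went from 66.0 to 208 CPM in morulae to 292 to 312 CPM in blastocysts (1.07, adjusted p = 0.0359). Ndufv3, attached to the NADH-oxidising module, went from 63.7 to 98.0 CPM in morulae to 119 to 148 CPM in blastocysts (0.72, adjusted p = 0.0221). Ndufa6 and Ndufa2 were close to the threshold at 0.90 and 0.88 (adjusted p = 0.051 and 0.0595), and neither had a morula as high as a blastocyst.

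Of the 20 membrane-arm accessory subunits 9 rose. Ndufa8 (ENSMUSG00000026895.7, chr2:36036326-36049406, minus strand), a disulphide-bonded subunit on the intermembrane-space face, had the smallest adjusted p of all members. It had 105, 120 and 125 CPM in morulae and 217, 223 and 253 CPM in blastocysts, 0.99 higher on the log2 scale (SE 0.17, adjusted p = 0.00773). Ndufa10, a subunit with a nucleoside-kinase fold, had 137, 170 and 267 CPM in morulae and 321, 391 and 424 CPM in blastocysts (0.98, adjusted p = 0.0172). Ndufab1, the mitochondrial acyl carrier protein, had 87.1, 89.5 and 116 CPM in morulae and 160, 168 and 214 CPM in blastocysts (0.89, adjusted p = 0.019). In each of these 3 genes every blastocyst was above every morula. The remaining 6 were subunits of the distal or central membrane arm: Ndufb5 (0.81), Ndufb8 (0.83), Ndufc2 (0.90), Ndufb9 (1.00), Ndufb10 (0.78) and Ndufb2 (0.72), with adjusted p-values from 0.0195 to 0.0463. Ndufa3, a small subunit at the heel of the complex, was the one membrane-arm member with a negative value, at -0.25 (adjusted p = 0.401). Its blastocysts had 209, 220 and 229 CPM and its morulae 223, 263 and 297 CPM, and the groups overlapped.

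Ndufa4, a complex IV subunit, rose by the same test, from 212, 213 and 325 CPM in morulae to 397, 432 and 492 CPM in blastocysts (0.82, SE 0.23, adjusted p = 0.0326). Among assembly factors Ndufaf5, which hydroxylates Ndufs7, gave the highest value at 0.81 (adjusted p = 0.142), with at most 13.4 CPM in morulae and up to 25.2 CPM in blastocysts, without overlap. Ndufaf7, a methyltransferase, was the lowest at -0.13 (adjusted p = 0.786).

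The number of calls rested on single embryos and on the scaling. Leaving out Alyref cross non-KO morula 1, 2 or 3 gave 2, 3 or 21 members called, leaving out blastocyst 1, 2 or 3 gave 2, 2 or 8, fitting the compared groups alone gave 3, and scaling to the ERCC spike-ins gave 0, with a member median of 0.27 against -0.34 over all genes. Calls over all genes moved too, to 865, 374 or 4560 and to 421, 441 or 1107. They were 637 with the compared groups alone and 352 with spike-in scaling. Ndufa8 and Ndufs6 were called in 13 of the 14 alternative settings, all but the spike-in scaling, while the other 14 called members were called in 6 to 9 of 14.

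**Figure D2:**
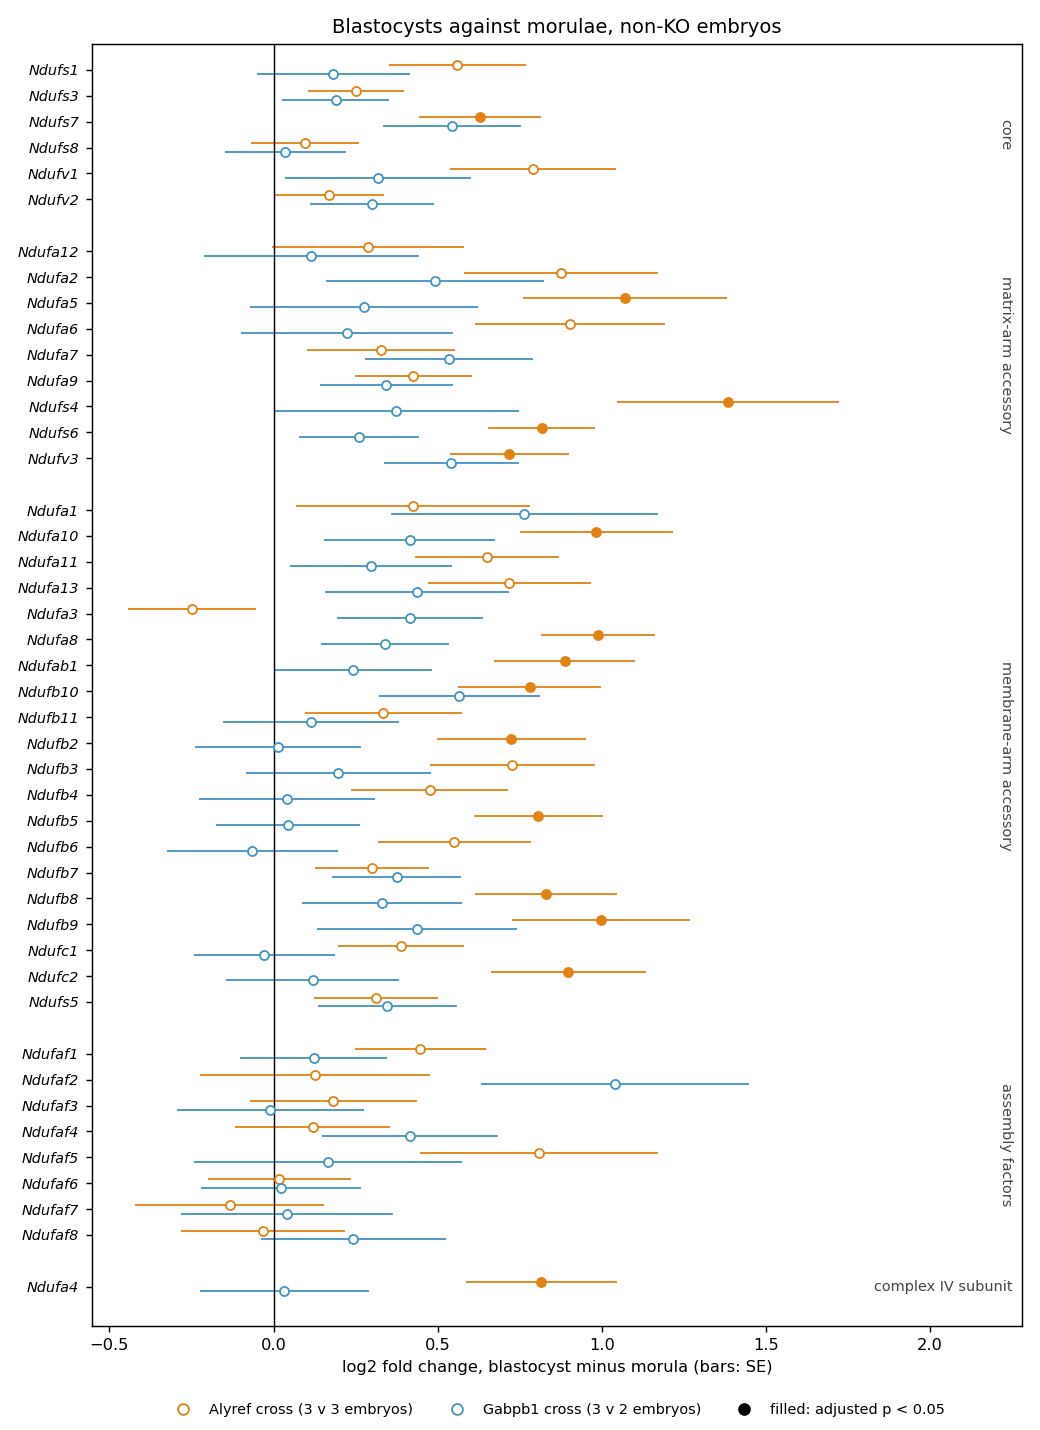
Log2 fold change of 44 of the 45 tested members, blastocysts minus non-KO morulae, in the Alyref cross (orange, 3 against 3 embryos) and the Gabpb1 cross (blue, 3 against 2). Bars are SE and filled points are called. The 15 filled points are all orange and to the right of 0, none of them an assembly factor, and the blue points lie between -0.06 and 1.04.

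In the Gabpb1 cross 42 of 45 members were again above 0, but the values were smaller. By edgeR 0 of 45 was called, where 0.0% of all genes tested were called and 4 members had an unadjusted p under 0.05. DESeq2, limma voom with embryo weights and limma on log2(FPKM + 1) also called 0 members, and 51, 24 and 10 of all genes tested. The median member log2 fold change was 0.27 against 0.02 over all genes tested, and 0.18 without the second Gabpb1 cross blastocyst. In 18 of 45 members all blastocysts were above both morulae, against 11.4% of all genes tested. Ndufs7 had 269 and 311 CPM in the morulae and 391, 419 and 459 CPM in the blastocysts (0.54, SE 0.21, adjusted p = 0.642). Ndufv3 had 90.0 and 93.3 CPM in the morulae and 119, 131 and 151 CPM in the blastocysts (0.54, SE 0.20, adjusted p = 0.627). These groups did not overlap, nor did those of Ndufb10 (0.57, adjusted p = 0.715) and Ndufaf2 (1.04, adjusted p = 0.652), an assembly factor and paralog of Ndufa12 that had 11.3 and 13.9 CPM in morulae and 22.5, 27.3 and 27.9 CPM in blastocysts. With spike-in scaling the values of Ndufv3, Ndufs7 and Ndufb10 turned to -0.36, -0.36 and -0.33 and the member median to -0.61, while the median of all genes moved to -0.86.

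A difference in stage effect between the crosses was not shown. The difference of differences, Gabpb1 cross minus Alyref cross, called 0 of 45 members by edgeR, where 0.00543% of all genes were called, with 6 members at an unadjusted p under 0.05. DESeq2 and limma on log2(FPKM + 1) called 0 and limma voom with embryo weights called 2, Ndufb5 and Ndufa8. Of all genes tested DESeq2 called 342, limma on log2(FPKM + 1) 0 and limma voom 1136. The median member difference by edgeR was -0.35, and the smallest adjusted p was 0.292, for Ndufb5 (-0.76, SE 0.29). Ndufs6 had 184 to 208 CPM in Alyref cross and 283 and 300 CPM in Gabpb1 cross non-KO morulae, while blastocysts of both crosses had 295 to 396 CPM. Gabpb1 cross against Alyref cross morulae gave 0.55 for Ndufs6, which was not called (adjusted p = 0.105).

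Pooled over crosses, 9 of 45 members had all 9 blastocysts above all 5 non-KO morulae, against 1.91% of all genes tested. They were the core subunit Ndufs7, the matrix-arm subunits Ndufa2, Ndufs4 and Ndufv3, and the membrane-arm subunits Ndufa10, Ndufa13, Ndufb8, Ndufb9 and Ndufb10. This pooling was chosen after the values were seen.

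**Figure D3:**
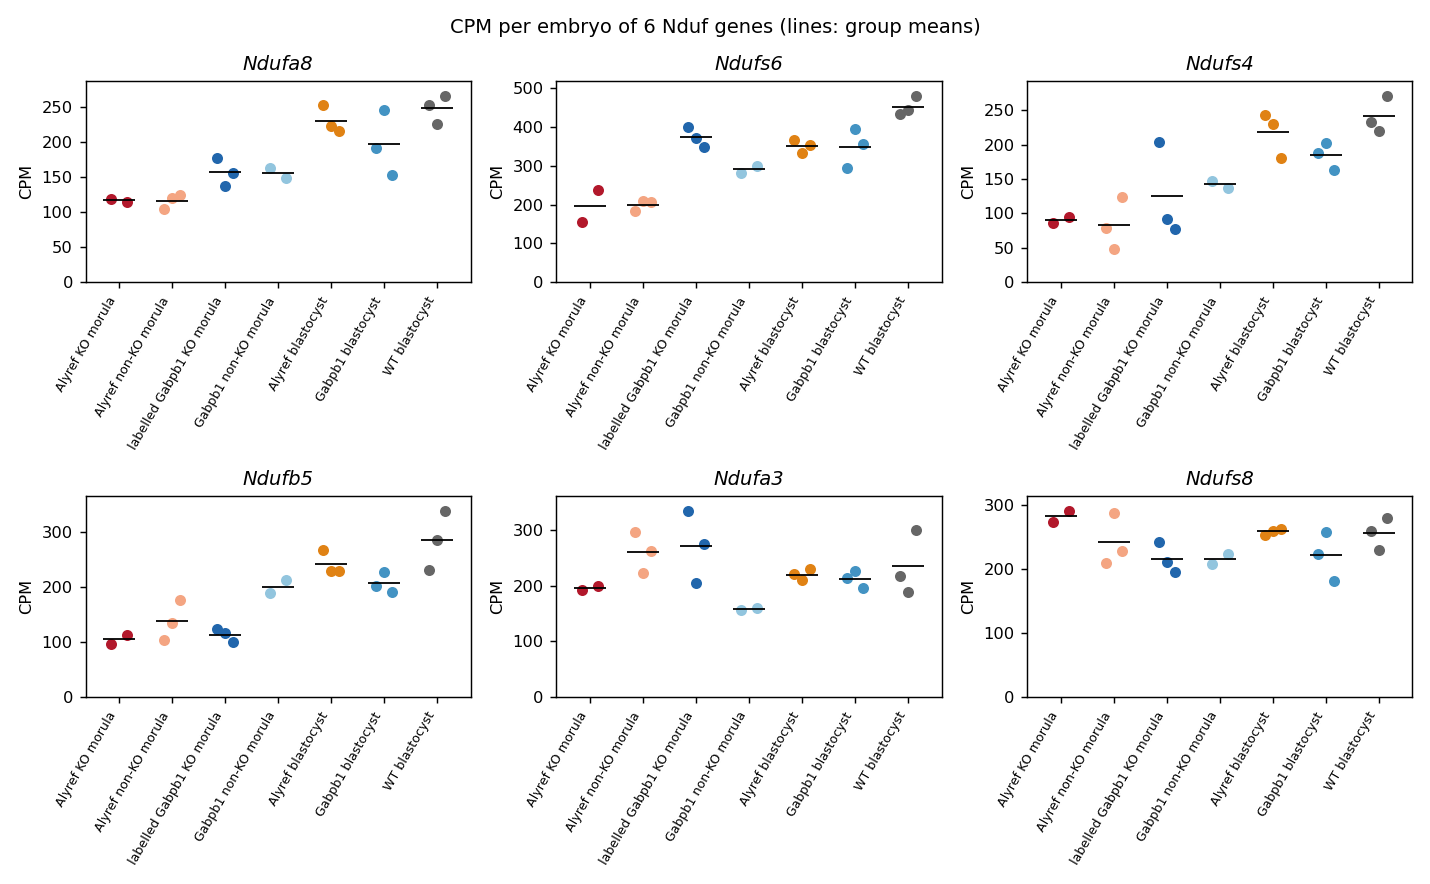
CPM per embryo of 6 Nduf genes in the 7 groups, with a line at each group mean. Ndufa8, Ndufs6, Ndufs4 and Ndufb5 are higher in Alyref cross blastocysts than in its non-KO morulae, Ndufa3 is lowest in Gabpb1 cross non-KO morulae (157 and 160 CPM), and Ndufs8 stays between 181 and 291 CPM.

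The other respiratory complexes were measured beside complex I. Among nuclear genes of complexes II to V, 22 of 50 tested rose between non-KO morulae and blastocysts of the Alyref cross and 0 fell, with a median of 0.67, and with the compared groups alone or with spike-in scaling 0 was called. They included the complex II subunits Sdha (1.04, adjusted p = 0.0296) and Sdhd (1.36, adjusted p = 0.0249), cytochrome c, Cycs (1.17, adjusted p = 0.0163), and the ATP synthase subunit Atp5a1 (0.80, adjusted p = 0.0279). The Nduf sum divided by the complex II to V sum was 0.414 ± 0.011 (SD, n = 3) in these blastocysts and 0.412 ± 0.0055 (SD, n = 3) in the morulae, a difference smaller than the spread between embryos.

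The mitochondrially encoded core subunits had values of both signs in the same comparison. Of 7 mt-Nd genes 0 rose and 1 fell, 5 were below 0 and 2 above, mt-Nd5 (0.06, adjusted p = 0.893) and mt-Nd6 (0.29, adjusted p = 0.616). The median was -0.28 by edgeR and -0.02 by limma voom with embryo weights, and with the compared groups alone 0 was called. The gene that fell was mt-Nd2, at 1867, 2823 and 1972 CPM in morulae and 1484, 1103 and 1472 CPM in blastocysts (-0.71, SE 0.23, adjusted p = 0.0486), with all blastocysts below all morulae. Divided by the Nduf sum, the mt-Nd sum was 1.99, 3.05 and 2.77 in the Alyref cross non-KO morulae and 1.42, 1.24 and 1.51 in the blastocysts of that cross. The ratio was 2.22 and 2.05 in Gabpb1 cross non-KO morulae and 1.41, 1.87 and 2.21 in its blastocysts, which overlap. WT blastocysts had 1.57, 1.39 and 1.24.

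Of 10 assembly factors not named Nduf, 0 was called by edgeR in that comparison, with a median of 0.26 and 2 at an unadjusted p under 0.05, while DESeq2 called 1, limma voom with embryo weights 2 and limma on log2(FPKM + 1) 0. Of 9 tested regulators, among them GABP subunits, Nrf1, Yy1, Esrra and Tfam, 0 was called by edgeR, with a median of -0.15 and 2 at an unadjusted p under 0.05, while DESeq2 called 1, limma voom with embryo weights 4 and limma on log2(FPKM + 1) 0. Of all genes tested DESeq2 and the limma fits called 3739, 7262 and 2596. Gabpa, the DNA-binding GABP subunit, had 179 to 250 CPM in morulae and 108 to 168 CPM in blastocysts of the Alyref cross (-0.68, adjusted p = 0.079), and Gabpb1 had 53.1 to 106 CPM and 38.7 to 43.2 CPM (-1.04, adjusted p = 0.0569). Ppargc1a, a coactivator of mitochondrial genes, was at 0 in every embryo but the second morula labelled Gabpb1 KO, which had 0.185 CPM.

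Between Alyref KO and non-KO morulae 0 of 45 members were called by edgeR, where 0.228% of all genes tested were called. DESeq2, limma voom with embryo weights and limma on log2(FPKM + 1) also called 0 members. Of all 18410 genes tested these tools called 490, 841 and 164. The median was -0.02 against -0.04 over all genes tested, with 20 members above 0 and 25 below and 6 at an unadjusted p under 0.05, and leaving out 1 embryo at a time gave medians of -0.15 to 0.07. In 5 of 45 members both KO embryos lay below all 3 non-KO morulae, against 12.3% of all genes tested, and in 2 of 45 they lay above, against 12.5%. The oocyte (maternal) marker sum was 14.3 and 20.7 CPM in the Alyref KO and 47.2 to 65.8 CPM in the non-KO morulae. Most of that sum was Ooep, at 8.40 and 11.5 CPM in KO and 38.2 to 60.6 CPM in non-KO morulae. Zp3 was also lower in KO (2.33 and 3.30 against 3.95 to 4.56 CPM), while Gdf9 was higher (1.00 and 2.64 against 0.518 to 0.869 CPM). The part of these markers in the member values was not tested.

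The members with the smallest p in this comparison were all lower in KO. Ndufv2, an iron-sulphur core subunit of the NADH-oxidising module, had 239 and 286 CPM in KO and 342, 411 and 460 CPM in non-KO morulae, without overlap (-0.62, SE 0.19, adjusted p = 0.178). Ndufb4 had 33.9 and 45.1 CPM against 53.4, 63.8 and 66.7 CPM (-0.63, SE 0.27, adjusted p = 0.359). Ndufb3 (-0.72, SE 0.29, adjusted p = 0.31) and Ndufb2 (-0.63, SE 0.26, adjusted p = 0.324), both in the distal membrane arm, overlapped between groups, with 66.4 and 92.3 CPM against 89.3 to 156 CPM for Ndufb3. Ndufs6, Ndufa8 and Ndufs4, which differed between stages in that cross, had log2 fold changes of -0.02 (SE 0.18), 0.00 (SE 0.19) and 0.12 (SE 0.37) here.

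In the morulae labelled Gabpb1 KO, edgeR likewise called 0 of 45 members, where 1.65% of all genes tested were called and 10 members had an unadjusted p under 0.05. DESeq2 called 5, among them Ndufa3, Ndufv3 and Ndufs5 higher and Ndufb5 lower, and both limma fits called 0. Of all 18410 genes DESeq2 called 1265, limma voom with embryo weights 463 and limma on log2(FPKM + 1) 532. The median was 0.23 against 0.06 over all genes tested, with 27 members above 0 and 18 below. It rested on single embryos and on the fit: it was 0.051 without the first, 0.079 without the second and 0.37 without the third embryo labelled KO, 0.15 without the second non-KO morula or without the filter on low counts, 0.13 with limma on log2(FPKM + 1) and 0.060 with limma voom and embryo weights. All 3 labelled KO embryos lay above both non-KO morulae in 14 of 45 members, against 15.8% of all genes tested, and below them in 6 of 45, against 16.4%.

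The members with the smallest p had values of both signs. Ndufb5 (ENSMUSG00000027673.12, chr3:32736990-32751566, plus strand), a membrane-arm subunit, had 99.0, 116 and 123 CPM in the embryos labelled KO and 188 and 213 CPM in the non-KO morulae (-0.83, SE 0.22, adjusted p = 0.061). The embryos labelled KO were all lower in it than these 2 controls, while the Alyref cross non-KO morulae had 104, 134 and 177 CPM. Ndufa3 had 205, 275 and 335 CPM against 157 and 160 CPM (0.78, SE 0.22, adjusted p = 0.0843). Ndufv3 had 139, 143 and 164 CPM against 90.0 and 93.3 CPM (0.70, SE 0.21, adjusted p = 0.0913). Ndufs5, on the intermembrane-space face, had 238, 354 and 361 CPM against 194 and 199 CPM (0.69, SE 0.21, adjusted p = 0.106). These 3 genes were higher in every embryo labelled KO.

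Of the 3 embryos labelled KO, the third had the lowest Nduf sum. The first had 423 CPM of Ndufa5 and 204 CPM of Ndufs4, the second 338 and 92.6 CPM and the third 275 and 77.2 CPM. Leaving out the first gave 2 members called, Ndufb5 (-0.90, adjusted p = 0.0461) and the assembly factor Ndufaf4 (0.98, adjusted p = 0.0476). In that fit 978 of 18170 genes were called. With spike-in scaling the member median became -0.23 against -0.40 over all genes, and 0 was called. All 7 mt-Nd genes were above 0, with a median of 0.49, and mt-Nd2 had the largest log2 fold change among them, 1.01 (adjusted p = 0.0572), with 3247 to 4394 CPM against 1908 and 1909 CPM. By edgeR 0 of 9 tested regulators was called, with 4 at an unadjusted p under 0.05, 6 above 0 and 3 below. Among these Tfam had 25.7, 36.2 and 15.8 CPM against 68.1 and 64.6 CPM. Of 10 assembly factors not named Nduf 0 was called, with 3 at an unadjusted p under 0.05, 3 above 0 and 7 below. Among these Timmdc1 had 3.27, 3.89 and 2.91 CPM against 8.18 and 7.76 CPM. Of all 18410 genes tested 3476 had an unadjusted p under 0.05.

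**Figure D4:**
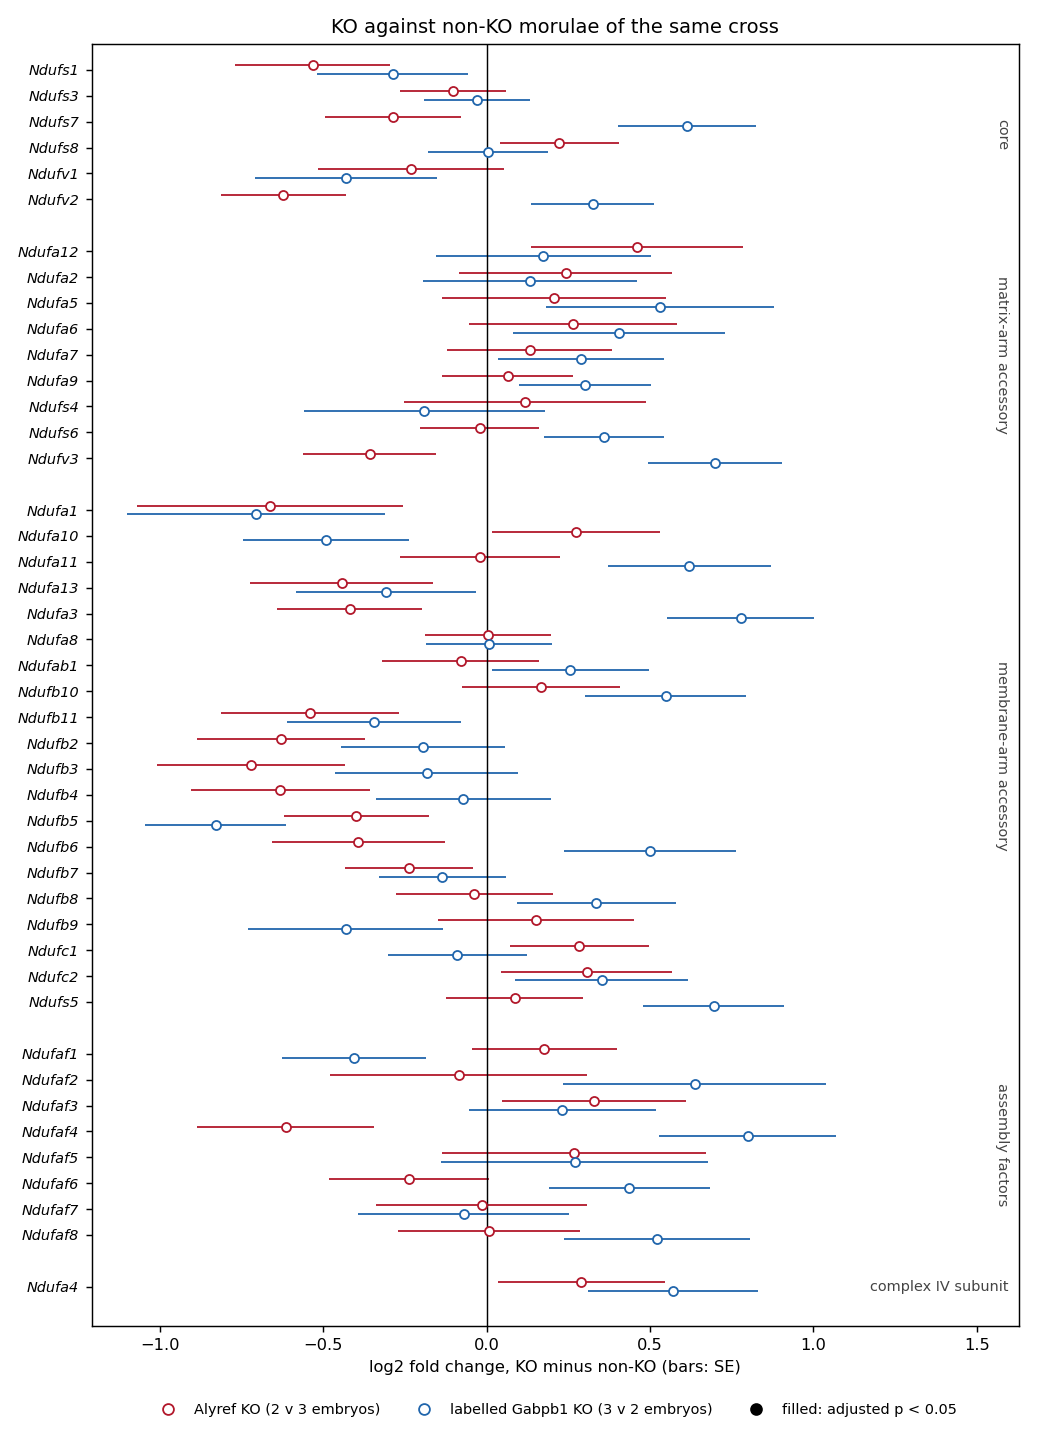
Log2 fold change of 44 of the 45 tested members between KO and non-KO morulae, in the Alyref cross (red, 2 against 3 embryos) and in morulae labelled Gabpb1 KO (blue, 3 against 2). Bars are SE. No point is filled, so none passed the threshold, and the widest gaps between colours are in Ndufaf4, Ndufa3, Ndufv3 and Ndufv2.

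The 2 KO comparisons were set against each other by the difference of differences, labelled Gabpb1 KO minus Alyref KO effect. It called 0 of 45 members by edgeR, where 0.907% of all genes tested were called and 6 members had an unadjusted p under 0.05. DESeq2 called 4, limma voom with embryo weights 2 and limma on log2(FPKM + 1) 0. Over all genes tested these tools called 894, 773 and 271. Ndufa3 gave 1.20 (SE 0.31, adjusted p = 0.0843), with both Alyref KO embryos at 191 and 199 CPM under their non-KO morulae (223 to 297 CPM) and all labelled Gabpb1 KO embryos over theirs. Ndufaf4, which works with Ndufaf3 on the ubiquinone module, gave 1.41 (SE 0.38, adjusted p = 0.0906), Ndufv3 1.06 (SE 0.29, adjusted p = 0.0944) and Ndufv2 0.95 (SE 0.27, adjusted p = 0.102). Leaving out the first or second morula labelled Gabpb1 KO, or the third Alyref cross non-KO morula, gave 1 call each, for the first 2 of these Ndufaf4 (1.60) and Ndufa3 (1.36). Over all genes these fits called 487, 148 and 713.

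The 2 sets of non-KO morulae were also compared with each other. Between Gabpb1 cross and Alyref cross non-KO morulae, which also serve in the comparisons above, edgeR called 0 of 45 members, where 1.86% of all genes tested were called and 10 members had an unadjusted p under 0.05. DESeq2 called 3, limma voom with embryo weights 9, limma on log2(FPKM + 1) 1, and edgeR without the third Alyref cross morula 8. Over all genes these settings called 1694, 2712 and 683 of 18410 and 2440 of 18351. The median was 0.26 against -0.03 over all genes tested, and 0.42 without the third Alyref cross morula. Ndufa3 was lower in the Gabpb1 cross (157 and 160 against 223 to 297 CPM, -0.72, adjusted p = 0.0904), while Ndufb2 (87.3 and 93.8 against 36.3 to 73.9 CPM, 0.76, adjusted p = 0.103) and Ndufs6 (0.55, adjusted p = 0.105) were higher in it. The Alyref cross non-KO morulae had trophectoderm marker sums of 742, 657 and 2321 CPM, and among them the third, with the highest sum, also had the highest Nduf sum. The Gabpb1 cross non-KO morulae, with trophectoderm sums of 4824 and 3165 CPM, had Nduf sums of 7688 and 7520 CPM. In the morulae labelled KO the 2 sums did not rank alike. The second morula labelled Gabpb1 KO had the lowest trophectoderm sum (376 CPM) and the highest Nduf sum (9443 CPM) of all morulae. In the Alyref KO morulae trophectoderm sums were 1666 and 756 CPM and Nduf sums 5690 and 6671 CPM. A relation between these sums was not tested.

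Blastocysts of both crosses had somewhat lower median Nduf values than WT blastocysts, with no member called. Against WT, 0 of 45 were called in the Alyref cross and 0 of 45 in the Gabpb1 cross by edgeR, DESeq2 and both limma fits. EdgeR called 0.0% of all genes in each, with 1 and 6 members at an unadjusted p under 0.05. DESeq2, limma voom with embryo weights and limma on log2(FPKM + 1) called 15, 41 and 5 of all genes for the Alyref cross. For the Gabpb1 cross they called 39, 10 and 4. The medians were -0.15 and -0.28 against -0.01 and -0.00 over all genes, and 10 and 3 of 45 members were above 0. Without the third WT blastocyst the medians were -0.09 and -0.16, and without the third Gabpb1 cross blastocyst the second was -0.17. With spike-in scaling the Alyref cross median was 0.026 against 0.15 over all genes. All 3 Alyref cross blastocysts lay below all WT blastocysts in 8 of 45 members, against 6.15% of all genes tested. For the Gabpb1 cross this held in 11 of 45 members, against 6.33%. Ndufs6 was among them in both, at 333 to 366 and 295 to 396 CPM against 434 to 481 CPM in WT (-0.37 and -0.38, adjusted p = 1.0 and 0.8). Both comparisons share the WT blastocysts, of which the third embryo had the highest Nduf sum of all 19.

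Most members varied together across embryos. Over the 990 pairs of tested members, the median correlation of log2(CPM + 1) across the 19 embryos was 0.47, with 86.6% of pairs above 0. It was 0.30 after group means were subtracted. These correlations share libraries, depth and stage and are given as a description. No value over pairs of all genes tested stands beside them, so they do not show a trait particular to these members. Ndufb8 followed the mean of the other members most closely (r = 0.95), then Ndufa8 (0.92), Ndufs4 (0.91) and Ndufa2 (0.91). At the other end were Ndufaf7 (-0.20), Ndufaf6 (-0.04), Ndufaf3 (0.03) and Ndufaf8 (0.05), and then Ndufs8 (0.08) and Ndufa3 (0.10).

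Some values may include reads of near-identical or overlapping genes, depending on how the authors counted. A pseudogene stretch of at least 100 bases at 95% identity or more was found for 12 of 46 members. Counts assigned to those pseudogenes were 92.1% of the member's own for Ndufab1, 54.3% for Ndufs5, 53.7% for Ndufb4, 43.9% for Ndufa12, 24.6% for Ndufs3 and 10.2% for Ndufb11, and at most 3.46% for the other 6, so these 6 named members are uncertain. Ndufab1-ps, one such copy, behaved as its parent gene in the Alyref cross, from 30.6 to 42.5 CPM in morulae to 61.9 to 81.9 CPM in blastocysts (1.01, adjusted p = 0.0111).

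Another gene row shared the span of 21 members, and in 18 of them exons overlapped. On the same strand this held for Ndufb2 with Gm42420 (145 bases), Ndufb8 with Gm20538 (134 bases) and Ndufb9 with AC158777.2 (201 bases). On the opposite strand it held for, among others, Ndufa13, Ndufa2, Ndufa3, Ndufa4l2, Ndufa9, Ndufab1, Ndufaf2, Ndufaf3, Ndufb11, Ndufb5, Ndufb6, Ndufs1, Ndufs3 and Ndufs6, with the longest stretches in Ndufaf2 with CT025566.1 (1955 bases), Ndufb5 with Mrpl47 (616 bases) and Ndufs1 with Ino80dos (489 bases). Ndufa10, Ndufc2 and Ndufv2 shared only introns. The strand setting of the counting is not given in the sources used here, so reads from opposite-strand partners cannot be told apart.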

How the data were processed

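Single-embryo polyA RNA libraries of 19 embryos were analysed from 1 table of raw counts per gene, deposited by the authors under an FPKM name but holding whole numbers only. Per the submitters' processing notes, Trimmomatic, Trim Galore, cutadapt, STAR and featureCounts were used with mm10, while versions, annotation and strand setting are not given in the sources used here. Per the labels, ERCC RNA was added after lysis and cDNA had 16 PCR cycles without molecular identifiers, so counts are not independent molecules.

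Genes with FPKM of at least 1 (from merged GENCODE exon lengths) in at least 2 embryos were tested, 18410 in all, with edgeR 4.0.16 in R 4.3.3: TMM scaling, 1 quasi-likelihood fit over the 7 groups, 9 two-sided contrasts, Benjamini-Hochberg adjustment over all genes, threshold 0.05. ERCC rows stayed out of library sizes. Depth was 7.49 to 31.5 M gene counts per embryo. Alternatives used DESeq2 1.42.0 and limma 3.58.1, other scalings and filters, a replicate block and leaving out each embryo in turn. The fit was tested on simulated data. Pseudogene copies were found by aligning GENCODE transcripts.

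Named with values were all members called in a contrast, the 4 with the smallest p in each KO and stage contrast, the 3 highest and 3 lowest by FPKM, the core subunits, and those overlapping other genes; other members in the text were chosen after their values were seen. Members and lists were chosen with earlier results of these data known. One member is included in fits, sums and counts but is not reported here by name.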

Additional observations from a re-analysis of the deposited data

How the results depend on the processing

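Between stages in the Alyref cross, members called numbered 18 with DESeq2-type size factors, 15 with no filter, 17 with the replicate block, 23 with DESeq2 and 23 with limma on log2(FPKM + 1), against 16. They numbered 31 with limma voom and embryo weights, 3 with the compared groups alone and 0 with ERCC scaling, where the median was 0.27. Over all genes calls in that order numbered 2420, 1990, 2013, 3739, 2596, 7262, 637 and 352, against 2402. Leaving out 1 embryo at a time gave 2 to 21 members called. Counts of 0 became 5 (DESeq2) for labelled Gabpb1 KO, 4 (DESeq2) and 2 (limma voom) for the difference between KO effects, 2 (limma voom) for the difference between stage effects, and 3 (DESeq2), 9 (limma voom) and 1 (limma on log2(FPKM + 1)) for non-KO morulae of the crosses. Leaving out 1 embryo gave 0 to 2, 0 to 1 and 0 to 8 for labelled Gabpb1 KO, the KO difference and non-KO morulae. ERCC scaling moved member medians to -0.23 (labelled Gabpb1 KO), -0.13 (KO difference), -0.61 (Gabpb1 cross stage), -0.88 (stage difference), 0.62 (non-KO morulae) and 0.026 (Alyref cross against WT), with all-gene medians of -0.40, -0.33, -0.86, -0.53, 0.39 and 0.15. The cause was not tested. Under it Ndufv3 (-0.36), Ndufs7 (-0.36) and Ndufb10 (-0.33) reversed in the Gabpb1 cross stage comparison. The labelled Gabpb1 KO median was 0.060 with limma voom. Leaving out 1 embryo gave medians of 0.051 to 0.37 for labelled Gabpb1 KO and 0.18 to 0.33 for the Gabpb1 cross stage comparison.

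Embryos share only replicate numbers: correlations of same-numbered embryos' deviations ran from -0.16 to 0.17, and the replicate block (17 against 16) changed no count of members called by more than 1.5 times. Over all genes it lowered the Alyref KO calls from 42 to 8 and the single call for the difference between stage effects to 0. Groups of 2 or 3 embryos limit the precision, and an embryo left alone in its group was assumed to vary like the others. Ndufa4l2, at 3 counts or fewer, was too shallow to compare. Of 380 values of named members under these alternatives, 277 stayed on their side of the threshold, 95 no longer passed it, 5 newly passed it and 3 reversed.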
